A study of Mus musculus with 11 samples.

Results

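Gas5 and 8 genes of the Snhg series (Snhg1, Snhg3, Snhg5, Snhg6, Snhg7, Snhg8, Snhg11 and Snhg12) carry small nucleolar RNAs (snoRNAs) in their introns, and their levels were followed here in mouse embryonic stem cells (ESCs). They were chosen by symbol, and all 9 have a row among the 23284 genes listed for each of the 11 libraries. WT cells and cells without Tet1, Tet2 and Tet3 (triple knock-out, TKO), which are enzymes that oxidise 5-methylcytosine, were collected either untreated (0 h) or 4 h into treatment with α-amanitin at 10 µg/ml, a mushroom toxin that blocks RNA polymerase II. Each of these 4 groups has 2 ribodepleted total RNA libraries, and a further 3 WT libraries hold polyA-selected RNA from cells without the toxin. All cells grew on gelatin in medium with serum and leukemia inhibitory factor. The labels name an equal volume of water as the control. The study's text calls the α-amanitin libraries biological duplicates. How many TKO clones they came from, and what the polyA replicates are, is not given in the sources used here. For polyA the p-values thus measure a spread that may be technical. For TKO against WT they measure the spread between duplicates, which may be of the same line. A difference between genotypes then cannot be told apart from one between cell lines.

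A snoRNA host gene is transcribed by RNA polymerase II and spliced, and the snoRNAs are trimmed out of the removed introns. The snoRNAs guide chemical modification of ribosomal and spliceosomal RNA, C/D box snoRNAs for 2'-O-methylation and H/ACA box snoRNAs for pseudouridylation. The spliced exons of a noncoding host often have no long reading frame and are known targets of nonsense-mediated decay, the pathway that removes RNAs with an early stop codon. Gas5 was named for its accumulation in growth-arrested cells, and many host genes start transcription at a run of pyrimidines, like genes of the translation machinery.

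The start sites of the 4 genes that fell most after α-amanitin in WT cells, and of Snhg11, which did not pass the test, show what the starts look like. RefSeq start sequences (GRCm38.p6) were given for 8 of the 9 genes, and each matched its NCBIM37 chromosome exactly once, which gives the positions here. Every line runs 5′ to 3′ from 40 bases before the annotated start to 20 bases from the start on. Capitals mark the letters TATA beginning 20 to 40 bases before the start, and runs of at least 5 C or T that begin within 10 bases of the start. The second of the 2 Gas5 starts lies at chr1:162965257-162965316 on the plus strand, the Snhg1 start at chr19:8797937-8797996 on the plus strand and the Snhg5 start at chr9:88417716-88417775 on the minus strand. The Snhg12 start lies at chr4:131864553-131864612 and the Snhg11 start at chr2:158201409-158201468, both on the plus strand.
Gas5: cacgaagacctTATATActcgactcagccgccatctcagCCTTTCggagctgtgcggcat
Snhg1: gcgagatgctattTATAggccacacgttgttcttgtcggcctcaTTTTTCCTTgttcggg
Snhg5: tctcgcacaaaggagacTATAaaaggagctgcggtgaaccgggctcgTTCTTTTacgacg
Snhg12: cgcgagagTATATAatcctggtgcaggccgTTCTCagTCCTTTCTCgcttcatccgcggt
Snhg11: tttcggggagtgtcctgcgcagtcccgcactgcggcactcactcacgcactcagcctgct

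TATA, which reads the same on both strands, was found at that distance for 6 of the 9 starts of these genes, against 5.81% of 32851 annotated starts. The missing 3 were the first Gas5 start, Snhg3 and Snhg11. A C or T run on the transcribed strand began near 7 of the 9 starts, against 38.0% of all starts. The stricter form, a C at the start base followed by 4 bases of C or T, was found at 3 of the 9 starts (Gas5, Snhg7 and Snhg8) and at 2.51% of all. These letters were chosen after the sequences were seen, and a match describes the window only.

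Among the RNAs these genes carry, a C/D box snoRNA of Gas5, a C/D box snoRNA of Snhg12 and an H/ACA box snoRNA of Snhg12 were measured in the files and are described further on. Snord47 lies at chr1:162968213-162968289, Snord99 at chr4:131866606-131866679 and Snora61 at chr4:131866155-131866284 (NCBIM37, plus strand). Capitals mark the first TGATGA (box C) and the last CTGA (box D) in Snord47 and Snord99, and the last ACA in Snora61, which has 3 bases after it.
Snord47: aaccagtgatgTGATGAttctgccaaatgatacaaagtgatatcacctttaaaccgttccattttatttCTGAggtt
Snord99: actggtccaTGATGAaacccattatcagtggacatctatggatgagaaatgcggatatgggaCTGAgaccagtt
Snora61: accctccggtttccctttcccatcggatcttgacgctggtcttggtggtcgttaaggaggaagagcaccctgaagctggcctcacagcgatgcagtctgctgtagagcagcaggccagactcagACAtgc

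In the GENCODE vM1 annotation of NCBIM37, 7 of the 9 genes are found by symbol. Gas5 spans 4118 bases of chromosome 1 (162964553 to 162968670, plus strand) and holds 9 annotated snoRNAs, each of them inside an intron of at least 1 transcript. Snhg1 spans 2947 bases of chromosome 19 (8797986 to 8800932, plus strand) and holds 8 snoRNAs, 3 of them inside an intron of an annotated transcript. In both Gas5 and Snhg1, no snoRNA is clear of every annotated exon. Snhg5 spans 1828 bases of chromosome 9 (88415894 to 88417721, minus strand) and holds 2. Snhg12 spans 2347 bases of chromosome 4 (131864593 to 131866939, plus strand) and holds 4. Snhg3 lies on the same chromosome (131903929 to 131909601, minus strand) and overlaps Rcc1 on the same strand. Snhg7 (chromosome 2, 26492697 to 26495764, minus strand) and Snhg11 (chromosome 2, 158201374 to 158211881, plus strand) hold 2 each, and Snhg11 is annotated there as protein_coding. The 5′ end of Gas5 overlaps Zbtb37 on the opposite strand. The strand setting of the counting is not given in the sources used here, so reads of Gas5 and Snhg3 may be shared with these neighbours.

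The deposited values are TPM, each gene's length-corrected share of a library. Whole reads recovered from the steps in these values summed to between 72639837 and 82129168 per polyA library and between 25507874 and 29781366 per ribodepleted library. The 9 genes together took between 0.123% and 0.227% of the TPM. Tet1 was at 148 and 122.8 TPM in the WT libraries at 0 h and at 32.3 and 32.8 in the TKO libraries, and Tet2 at 57.2 and 47.7 against 8.32 and 7.79. Tet3 was low in both genotypes, at 1.46 and 1.47 TPM in WT and 1.498 and 1.64 in TKO. Both TKO values were the higher, but the limma fit described below, on scaled values, gave a difference of 0.00048 (adjusted p = 0.997). The 5 ESC markers (Pou5f1, Nanog, Sox2, Esrrb and Zfp42) summed to 2154 and 2192 TPM in WT and to 1510 and 1527 TPM in TKO cells at 0 h. Zfp42 alone had a mean of 495 TPM in WT and 124 TPM in TKO, while Nanog had 38.5 and 46.2 TPM. Over all 11 libraries, fibroblast or feeder markers summed to between 5.87 and 13.9 TPM and primitive endoderm markers to between 1.80 and 7.63 TPM. The 2 TKO libraries at 4 h differed more from each other than the WT libraries at 4 h did. Values of both are given for each host gene in the α-amanitin comparison in TKO, and not in every other comparison.

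The genes covered a wide range of levels. In WT cells at 0 h, Snhg1 was the highest, at 659 and 617 TPM in the 2 libraries. Gas5 followed at 334 and 326 TPM and overlapped Snhg3 at 328 and 316 TPM, while Snhg5 lay just below at 299.8 and 313 TPM. Snhg12 was at 214 and 211 TPM. Snhg7, at 165.2 and 165.3 TPM, and Snhg6, at 159.8 and 164 TPM, did not overlap but lay close together. Snhg8 stood at 102 and 103 TPM and Snhg11 far below the rest at 3.45 and 3.25 TPM. Snhg11 rested on 283 and 275 recovered reads in these libraries, against 910 to 12038 for the other genes.

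**Figure D1:**
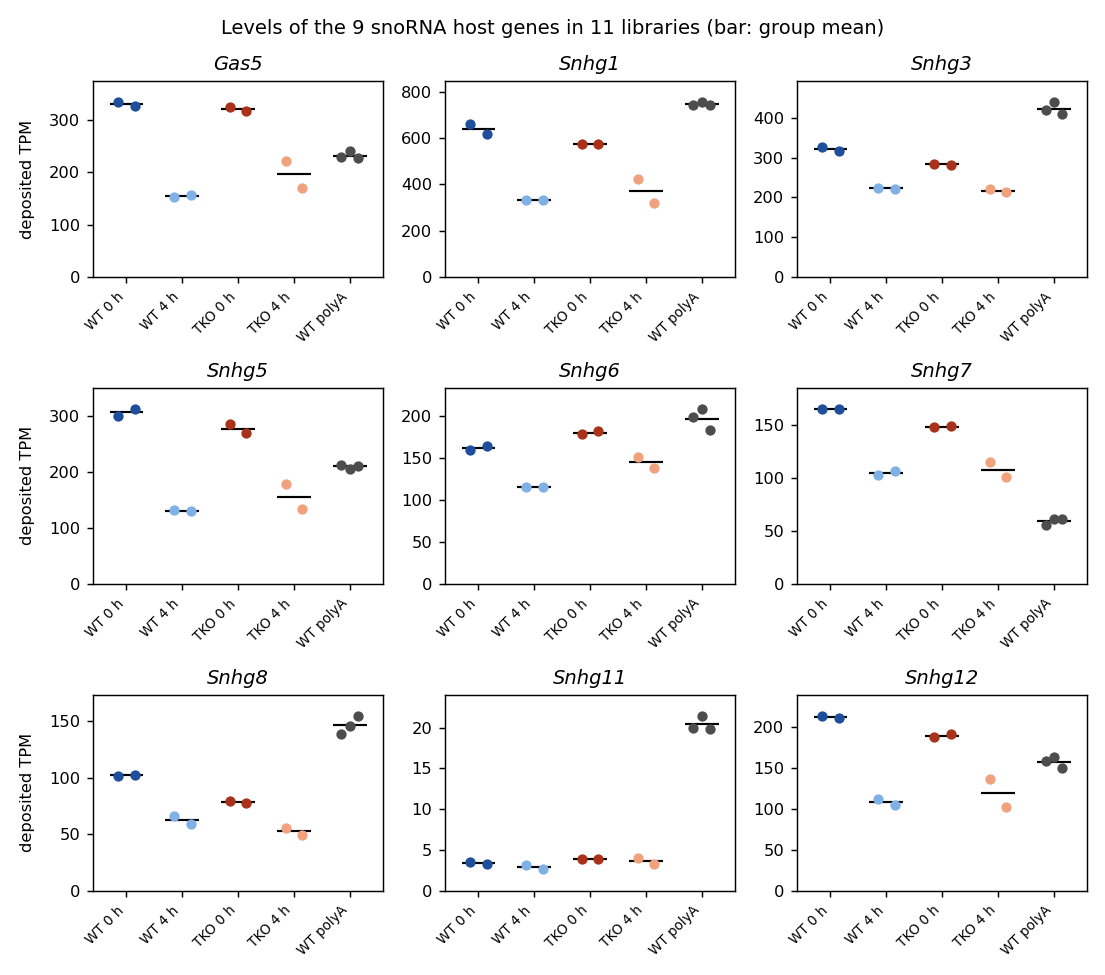
Deposited TPM of each host gene (1 panel per gene, vertical axis from 0) in the 11 libraries, with points for libraries and a bar for the group mean. In all panels but that of Snhg11, both 4 h libraries of a genotype lie below both of its 0 h libraries. The 3 polyA libraries stand highest for Snhg1, Snhg3, Snhg6, Snhg8 and Snhg11 and lowest for Snhg7.

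After 4 h in α-amanitin, 8 of the 9 host genes were lower in WT cells at adjusted p under 0.05, where 15.8% of all 12467 tested genes were lower by that rule. Snhg5, Gas5, Snhg12 and Snhg1 fell by more than 1.5-fold, 4 of 9 against 2.01% of tested genes, and none of the 9 rose (0.0882% of tested genes did past 1.5-fold). The median change of the 9 was -0.55 on the log2 scale, beside 0.028 over all tested genes. These and the following changes are limma estimates on log2(scaled TPM + 1), where scaled TPM is TPM divided by a size factor of the library, with Benjamini-Hochberg adjustment over all tested genes. TPM are relative, so a fall here is a fall against the typical transcript. In a bulk sample, fewer cells of a kind and less RNA per cell cannot be told apart.

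Snhg5, the host of the U50 snoRNAs, fell the most. Its scaled TPM was 291 and 315 at 0 h and 147 and 141 at 4 h in WT cells, a change of -1.06 (SE 0.095, adjusted p = 0.00129). Gas5 went from 324 and 329 to 172 and 170.2, a change of -0.93 (SE 0.083, adjusted p = 0.00129). Both Gas5 groups were tight, and the gap between them was far larger than the spread within them. Zbtb37, which overlaps Gas5 on the other strand, also fell, from 12.9 and 11.9 to 9.25 and 9.45 (change -0.37, adjusted p = 0.035). In TKO the change of Zbtb37 was -0.33 (adjusted p = 0.147). Snhg12 went from 208 and 213 to 126 and 114, a change of -0.80 (SE 0.096, adjusted p = 0.00328). Snhg1, which carries 8 C/D box snoRNAs, went from 639 and 622 to 373 and 359, a change of -0.78 (SE 0.089, adjusted p = 0.00267). In each of these 4 host genes the highest 4 h library was well under the lowest 0 h library.

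The remaining falls were smaller. Snhg8, the host of an H/ACA box snoRNA, went from 98.5 and 104 to 73.8 and 64.3 (change -0.55, SE 0.067, adjusted p = 0.00358). Snhg7 went from 160.1 and 167 to 115.2 and 116 (change -0.49, SE 0.048, adjusted p = 0.00209). Their WT groups did not overlap. Snhg3, the host of the U17 (Snora73) snoRNAs, went from 317.6 and 318 to 251 and 241 (change -0.37, SE 0.043, adjusted p = 0.00278). Rcc1, which overlaps it, changed by 0.19 the other way (adjusted p = 0.0196). Snhg6 showed the smallest fall that passed, from 155 and 165 to 129.7 and 126 (change -0.32, SE 0.047, adjusted p = 0.00533). Snhg11 stood at 3.34 and 3.27 before and 3.45 and 2.88 after treatment, and its groups overlapped (change -0.052, 95% interval -0.28 to 0.18, adjusted p = 0.712). Groups without overlap were common, at 72.9% of all tested genes in this comparison, and 8 of the 9 host genes were among them. All 8 falls passed again when any single library was left out. With deposited TPM, not divided by size factors, the median of all tested genes was -0.11 and the split of all genes was 25.2% lower and 3.19% higher, and 8 of the 9 host genes were again lower, with a median of -0.70.

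**Figure D2:**
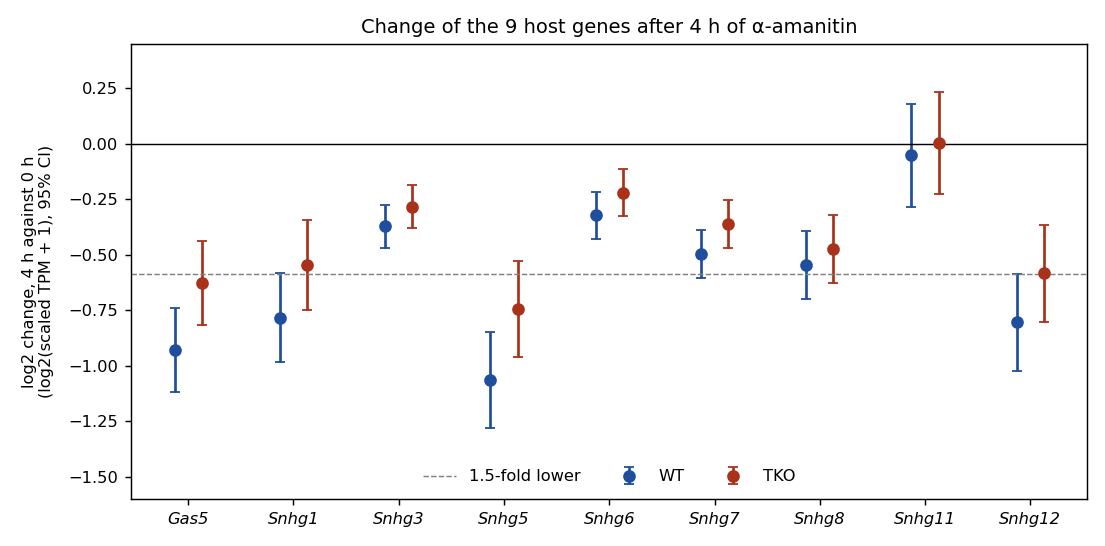
Log2 change from 0 h to 4 h of α-amanitin for each host gene (points) with its 95% confidence interval from the limma fit, in WT (blue) and TKO (red) cells, 2 libraries per group. The dashed line marks a fall of 1.5-fold. WT points lie below TKO points for all 9 genes, and the intervals of the 2 genotypes overlap for every gene.

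In TKO cells the 9 genes kept the WT order from Snhg5 at the lowest value to Snhg11 at the highest, with values closer to 0. At adjusted p under 0.05, 5 of the 9 genes were lower (Gas5, Snhg3, Snhg5, Snhg7 and Snhg8), where 0.265% of all tested genes were. Gas5 and Snhg5 fell by more than 1.5-fold, 2 of 9 against 0.16% of tested genes. Snhg5 went from 265 and 248 scaled TPM to 171 and 136 (change -0.74, SE 0.095, adjusted p = 0.0445). Gas5 went from 302 and 292 to 213 and 173 (change -0.63, SE 0.083, adjusted p = 0.0445). In both genes the 4 h libraries lay well apart from each other, with replicate 1 the higher.

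Snhg12 went from 175 and 176 to 131 and 104 (change -0.58, SE 0.096), and Snhg1 from 532 and 528 to 406 and 325 (change -0.54, SE 0.089). Both missed the threshold, each with an adjusted p of 0.0548. Snhg8 went from 73.4 and 71.4 to 53.3 and 50.4 (change -0.47, adjusted p = 0.0488), Snhg7 from 137.1 and 137.4 to 110.4 and 103 (change -0.36, adjusted p = 0.0445) and Snhg3 from 264 and 259 to 212 and 217 (change -0.28, adjusted p = 0.0488). Snhg6 had 166 and 168 at 0 h and 145 and 141 at 4 h (change -0.22, adjusted p = 0.0904). Snhg11 stayed within its spread, at 3.58 and 3.54 against 3.87 and 3.29 (change 0.0033, 95% interval -0.23 to 0.23, adjusted p = 0.988). The TKO groups of 8 of the 9 genes did not overlap, beside 58.7% of all tested genes.

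These TKO calls sit close to the threshold. No host gene was past adjusted p 0.05 when TKO 0 h replicate 1, TKO 0 h replicate 2 or any 1 of the 4 WT libraries was left out, 2 were when TKO 4 h replicate 2 was, and 8 were when TKO 4 h replicate 1 was. The count past 1.5-fold was 4 without TKO 4 h replicate 1 and 0 without any other 1 of the 8 libraries. At an unadjusted p under 0.05, 8 of the 9 genes were lower in TKO, where 24.9% of tested genes passed in either direction.

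The share of the 0 h level left in each 4 h library places the 2 genotypes side by side. In WT cells the libraries kept 48.6% and 46.7% of Snhg5, 52.7% and 52.1% of Gas5, 59.1% and 57.00% of Snhg1 and 60.1% and 54.3% of Snhg12. TKO cells kept 66.6% and 53.1% of Snhg5, 71.8% and 58.3% of Gas5, 76.5% and 61.3% of Snhg1 and 74.8% and 59.2% of Snhg12. For Snhg5, Gas5 and Snhg1, TKO replicate 2 lay closer to WT than to TKO replicate 1. Snhg3 kept 78.8% and 75.7% in WT and 81.1% and 83.1% in TKO, Snhg6 kept 81.0% and 78.8% against 86.9% and 84.6%, and Snhg7 kept 70.5% and 71.0% against 80.4% and 74.9%. Snhg8 kept 73.1% and 63.6% in WT and 73.7% and 69.7% in TKO, and Snhg11 104% and 87.1% against 109% and 92.3%. Both TKO libraries were above both WT libraries for 6 of the 9 genes, where that held for 21.5% of 12464 genes, while Snhg8, Snhg11 and Snhg12 overlapped. That share covers all genes, whereas 8 of these 9 were lower in WT. Of all genes lower in WT at adjusted p under 0.05, 95.7% had a TKO change above their WT change, so 21.5% is not a like background. No test was made of these shares, and they are relative to each library's typical transcript, giving no half-life.

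**Figure D3:**
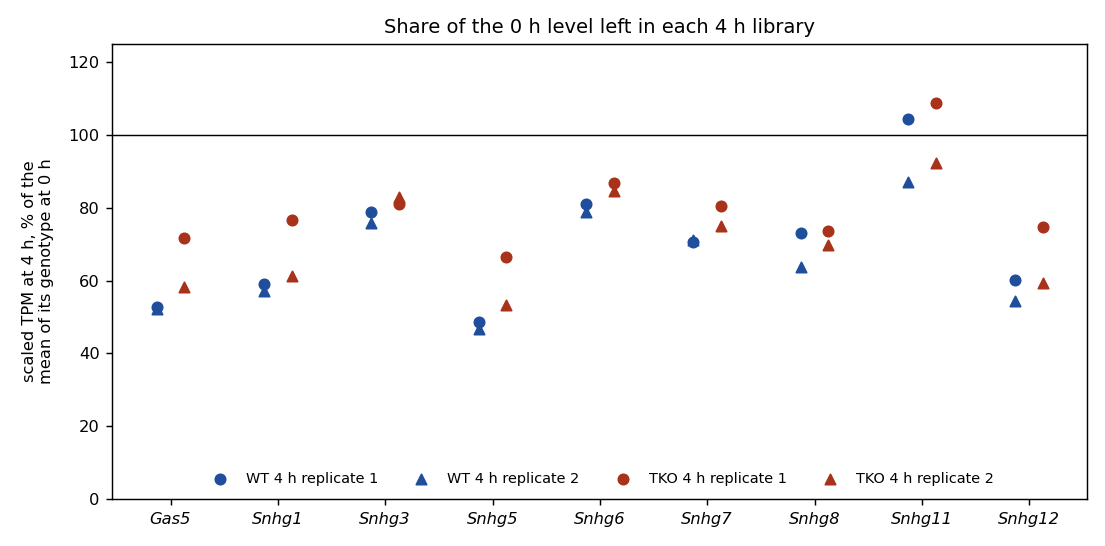
Scaled TPM of each host gene in every 4 h library as a percentage of the mean of its genotype at 0 h (vertical axis from 0, line at 100%), with circles for replicate 1 and triangles for replicate 2, WT in blue and TKO in red. Snhg5 and Gas5 have the lowest shares in both genotypes, and the TKO circles stand apart from the TKO triangles for Gas5, Snhg1, Snhg5 and Snhg12.

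The difference between the genotypes in the response itself, the interaction, passed the threshold for no host gene, and limma called 0 of the 12467 tested genes for it. Its value was above 0, a smaller fall in TKO, for 9 of 9 host genes, where 45.6% of all tested genes were above 0. The interaction is the TKO change minus the WT change, so genes picked for a low WT change tend to values above 0, and 95.7% of those lower in WT at adjusted p under 0.05 were. The values ran from 0.055 for Snhg11 to 0.32 for Snhg5 (95% interval 0.012 to 0.62), with a median of 0.13. At an unadjusted p under 0.05 the interaction passed for Gas5 (0.30) and Snhg5, both with an adjusted p of 0.662 in limma, and 7.52% of tested genes passed at that level.

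Before treatment the genotypes differed little in these genes. At 0 h no host gene differed by more than 1.5-fold, where 5.43% of tested genes were lower and 10.5% higher in TKO by that rule. At adjusted p under 0.05, 5 of the 9 were lower in TKO (Snhg1, Snhg3, Snhg7, Snhg8 and Snhg12), beside 28.2% of tested genes, and none higher, beside 27.8%. Snhg8 had the largest difference, at 73.4 and 71.4 scaled TPM in TKO against 98.5 and 104 in WT (difference -0.48, SE 0.067, adjusted p = 0.000416). The TKO level was 0.719 of the WT level. The groups did not overlap, which held for every host gene and for 81.7% of tested genes in this comparison. Snhg3 (difference -0.28, adjusted p = 0.000652), Snhg7 (-0.25, adjusted p = 0.00217), Snhg12 (-0.26, adjusted p = 0.0463) and Snhg1 (-0.25, adjusted p = 0.0392) were next. Gas5 did not pass (-0.13, 95% interval -0.32 to 0.054, adjusted p = 0.197). The count of 5 was 2 with deposited TPM and with quantile normalisation, 3 without any 1 of the 0 h libraries or of the WT 4 h libraries, and 7 without either TKO 4 h library. The 5 ESC markers summed to 0.151% to 0.153% of the TPM in TKO and 0.215% to 0.219% in WT at 0 h. They differed unequally, by -2.08 for Zfp42, -0.74 for Esrrb, -0.35 for Sox2 and -0.34 for Pou5f1. Nanog did not pass and had a value above 0 (0.16, adjusted p = 0.128). The part of the markers in the host gene differences was not tested. Without the number of clones, genotype and cell line cannot be told apart at 0 h or at 4 h.

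At 4 h of α-amanitin, Snhg3 and Snhg8 remained lower in TKO, by -0.19 (adjusted p = 0.00447) and -0.40 (adjusted p = 0.000939), and Snhg6 was higher, by 0.16 (adjusted p = 0.0156). By this rule 30.3% of tested genes were lower and 29.1% higher. With deposited TPM and with quantile normalisation, 1 host gene was lower and 2 were higher. Over all alternative settings the Snhg3 difference ran from -0.23 to -0.027 and that of Snhg8 from -0.51 to -0.25. Past 1.5-fold 0 of the 9 differed by limma, beside 5.82% lower and 11% higher. Gas5 was at 213 and 173 scaled TPM in TKO and 172 and 170.2 in WT, a difference of 0.17 that did not pass (adjusted p = 0.113). Without TKO 4 h replicate 1, 5 host genes were lower and 1 higher, and without replicate 2, 2 were lower and 4 higher, so this comparison turns on which TKO library is read. Snhg6 did not pass without either WT 4 h library.

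PolyA and ribodepleted WT libraries differed in both directions in these genes. The 3 polyA libraries were set against the WT ribodepleted ones of 0 h in a separate model of 12478 genes, and all 9 host genes differed at adjusted p under 0.05, 4 lower and 5 higher, beside 40.8% and 40.2% of tested genes. Past 1.5-fold, 3 were lower and 1 higher, beside 16.4% and 18.7%. Snhg7 was lowest, at 54.0, 59.0 and 59.9 scaled TPM in polyA libraries against 169 and 176 in ribodepleted ones (difference -1.56, SE 0.0505, adjusted p = 2.49e-08). Snhg5 was at 207, 197 and 207 against 307 and 333 (-0.65, adjusted p = 2.31e-06), and Gas5 at 222, 229.8 and 223 against 342 and 347 (-0.61, adjusted p = 6.98e-07). The polyA and ribodepleted groups did not overlap for any host gene, and the share of all tested genes without overlap was not computed here.

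Snhg11 was far higher in polyA libraries, at 19.4, 20.6 and 19.4 scaled TPM against 3.53 and 3.45 (difference 2.21, SE 0.053, adjusted p = 5.19e-09). On recovered reads it had 4228 to 4794 in the polyA libraries and 226 to 339 in the ribodepleted ones. Snhg12 was at 0.689 of the ribodepleted level (-0.54, adjusted p = 2.76e-06), while Snhg8 (0.41), Snhg3 (0.29), Snhg6 (0.18) and Snhg1 (0.12) were higher, each at adjusted p under 0.05. Of the 5 higher host genes, 4 passed with a replicate block and 4 without polyA replicate 1. Over all alternative settings the difference ran from 0.092 to 0.23 for Snhg1 and from 0.12 to 0.28 for Snhg6. The count past 1.5-fold was 2 with deposited TPM, which leaves Snhg7 and Snhg11. RNA selection and library preparation differed together between these libraries. They cannot be told apart from each other or from any difference between the cells used. The 5 ESC markers also differed in both directions here. Zfp42 (-1.65) and Nanog (-0.41) were lower in polyA libraries, and Pou5f1 (0.60), Sox2 (0.43) and Esrrb (0.32) higher. The part of the cells in the host gene differences was not tested.

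Rows for the carried snoRNAs exist for few of them. RefSeq places 30 snoRNAs in the spans of the 9 genes, of which 10 have a row in the files and 9 were above 0, while Snora24 of Snhg8 is listed at 0 in every library. The 9 are Snord47 (Gas5), Snord22 (Snhg1), Snord87 (Snhg6), Snora43 and Snora17 (Snhg7), and Snora16a, Snora44, Snora61 and Snord99 (Snhg12). Such a row can hold reads of the trimmed snoRNA, of host RNA that still contains the intron or of an annotated exon over the snoRNA. The files do not separate them. In GENCODE vM1, Snord47, Snord22, Snora43, Snora17, Snora44, Snora61 and Snord99 are not clear of every annotated exon, while Snora16a is.

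All 9 snoRNA rows were at lower values after α-amanitin in WT cells, and 8 of the 9 passed adjusted p 0.05 (15.8% of tested genes were lower by that rule). Snord47, shown above, fell the most, from 159.9 and 185 scaled TPM to 68.1 and 62.1 (change -1.39, SE 0.149, adjusted p = 0.0024). It rested on 150 and 172 reads at 0 h and 59 and 54 at 4 h. Snord87 fell from 49.6 and 61.3 to 26.3 and 28.3 (change -0.99, SE 0.087, adjusted p = 0.00129), a larger value than the -0.32 of its host Snhg6. Snord99 fell from 189 and 218 to 108 and 103 (change -0.94, adjusted p = 0.00129) and Snora61 from 406 and 440.1 to 255 and 253 (change -0.73, adjusted p = 0.00116). These lie on either side of the -0.80 of their host Snhg12.

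Snora16a (-0.88), Snora17 (-0.50), Snora44 (-0.42) and Snora43 (-0.41) also fell. Snord22 did not pass (change -0.45, adjusted p = 0.0624), with libraries of 487 and 603 at 0 h and 434 and 364 at 4 h. In TKO cells all 9 were again at lower values, from -0.61 for Snord47 to -0.21 for Snora17, but only Snora61 passed (-0.43, adjusted p = 0.0445). The WT count of 8 was 5 without WT 4 h replicate 1, where Snora43, Snora17 and Snora44 no longer passed, and 7 without WT 4 h replicate 2. The TKO count of 1, beside 0.265% of tested genes, was 7 without TKO 4 h replicate 1 and 0 without TKO 4 h replicate 2, either TKO 0 h library or either WT 4 h library. The ratio of snoRNA to host TPM moved both ways, with no test made. In WT cells it was lower at 4 h without overlap for 3 of the 9 (Snord47, Snord87 and Snord99) and higher for 2 (Snord22 and Snora44). In TKO cells it was lower for Snord87 alone and higher for 3 (Snora43, Snora17 and Snora44). No share over other ratios was computed to set beside these counts, so they are description only. By scaled TPM, the groups of 72.9% of tested genes in WT and 58.7% in TKO did not overlap.

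**Figure D4:**
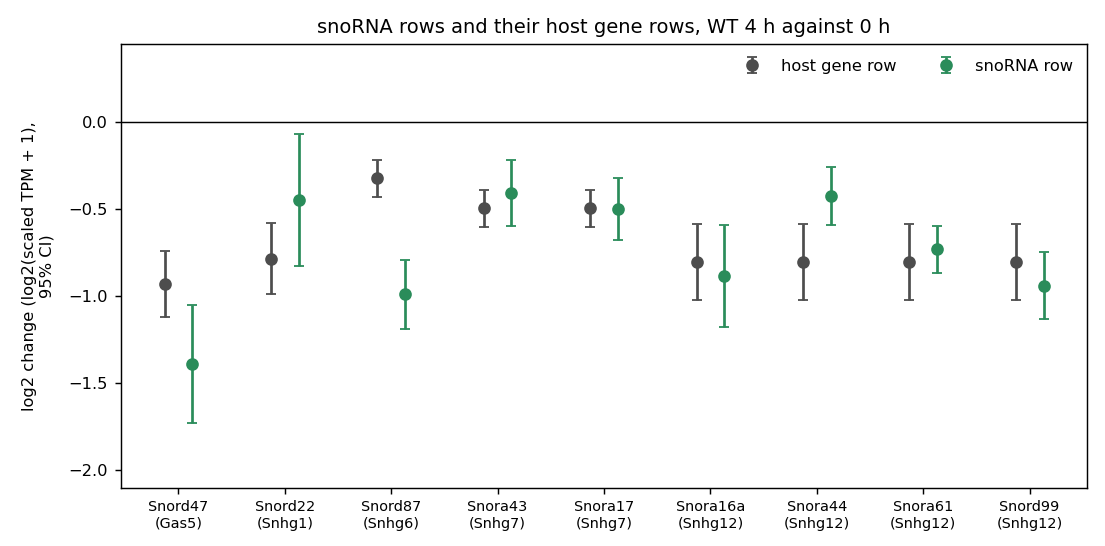
Log2 change from 0 h to 4 h of α-amanitin in WT cells for 9 snoRNA rows (green) and the rows of their host genes (grey), with 95% confidence intervals from the limma fit, 2 libraries per group. The snoRNA values run from -1.39 to -0.41. Snord87 lies below its host with no overlap of the intervals.

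After polyA selection 7 of the 9 snoRNA rows were lower by more than 1.5-fold, beside 16.4% of tested genes, from -4.52 for Snord22 to -2.05 for Snora43. Snord22 was at 503 and 598 TPM in ribodepleted libraries at 0 h and at 25.9, 22.7 and 25.3 TPM in polyA libraries, and Snora61 at 419 and 437 against 42.9, 42.2 and 46.8. Snora16a and Snord99 of Snhg12 did not pass. Snord99 was at 195 and 216 TPM against 197, 181 and 218 (difference -0.16, 95% interval -0.36 to 0.044, adjusted p = 0.128), and Snora16a at 118 and 122 against 108, 124 and 127 (-0.11, adjusted p = 0.193). The snoRNAs of 1 host thus split, since Snora44 (-4.32) and Snora61 (-3.36) of Snhg12 were among the lower rows.

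**Figure D5:**
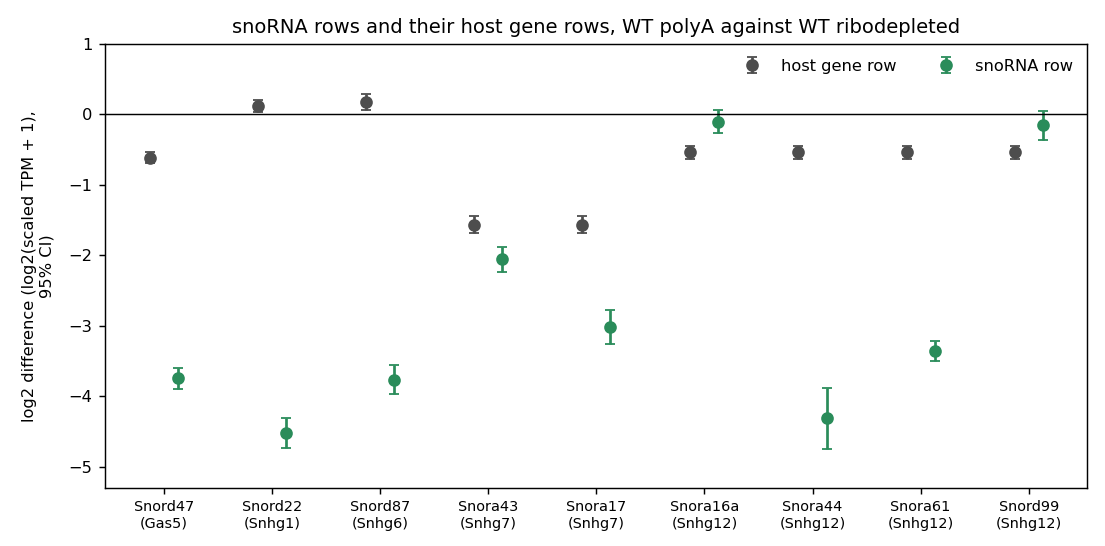
Log2 difference between WT polyA libraries (3) and WT ribodepleted libraries at 0 h (2) for 9 snoRNA rows (green) and their host gene rows (grey), with 95% confidence intervals. Snora16a and Snord99 lie near 0, while the other 7 lie at -2.05 or lower, each below its host.

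Other noncoding snoRNA hosts gave counts near those of the 9. Of 12 such genes 11 have a row, 8 of them under an older symbol, and 9 of 11 were lower in WT after α-amanitin at adjusted p under 0.05 (15.8% of tested genes), 5 of them past 1.5-fold (2.01%), with a median of -0.51. Dancr (-0.98, adjusted p = 0.00129) and Zfas1 (-0.91, adjusted p = 0.0024) had the largest falls. Snhg10 (-0.0051, adjusted p = 0.982) and Snhg18 (0.039, adjusted p = 0.836, below 0 with deposited TPM) were at the other end. In TKO, 3 of 11 were lower, beside 0.265% of tested genes, with Zfas1 at -0.68 and Dancr at -0.62.

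Protein-coding snoRNA hosts, mostly genes of ribosomal proteins and translation factors, moved otherwise. Of 24 measured, 12 were higher and 1 lower in WT at adjusted p under 0.05, beside 21.9% and 15.8% of tested genes, and their median was 0.24. That count depended on the scaling, at 1 higher and 2 lower with deposited TPM and 3 higher and 2 lower with quantile normalisation. Rpl13 (0.32, adjusted p = 0.0288) and Rpl7a (0.31, adjusted p = 0.0218), both of the large ribosomal subunit, had the highest values. Eif4a2, an RNA helicase of translation initiation, was the 1 that fell (-0.70, adjusted p = 0.00214), and Nop56 was next at -0.12 (adjusted p = 0.056). None of the 24 passed in TKO, where Eif4a2 was at -0.46 (adjusted p = 0.0511). These hosts summed to between 42327 and 45891 TPM in the ribodepleted libraries, against 1229 to 2265 for the 9 genes.

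Of 10 proteins that assemble or form snoRNA particles (snoRNPs), 6 were higher and 0 lower in WT at adjusted p under 0.05, beside 21.9% and 15.8% of tested genes, with a median of 0.23, but with deposited TPM and with quantile normalisation 1 was higher and 1 lower. Nhp2 (0.30, adjusted p = 0.00846) and Nop10 (0.30, adjusted p = 0.0145), core proteins of H/ACA particles, had the highest values, and the C/D particle proteins Nop56 (-0.12) and Nop58 (-0.011, adjusted p = 0.909) the lowest. In TKO 0 of the 10 passed by limma. Of 10 factors of nonsense-mediated decay, 3 were lower and 1 higher in WT, beside 15.8% and 21.9% of tested genes. Smg8 was among those that fell (-0.29, adjusted p = 0.0109), and Upf3a (0.21, adjusted p = 0.00874) and Upf1 (0.11, adjusted p = 0.122, below 0 with deposited TPM and with quantile normalisation) were highest. None of these 10 passed in TKO.

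Among themselves 8 of the 9 host genes followed much the same course over the 8 ribodepleted libraries. Pearson's r of a gene with the mean of the others was 0.997 for Snhg12, 0.994 for Snhg1, 0.986 for Snhg5, 0.970 for Snhg7 and 0.960 for Gas5. It was lower for Snhg3 (0.876), Snhg8 (0.826) and Snhg6 (0.800), and 0.122 for Snhg11. These are descriptions over libraries that fall into treated and untreated groups. Of 8099 genes with a mean of at least 10 scaled TPM, those most like the mean of the 9 were Taf1d (r = 0.991), BC027231 (0.991), Mynn (0.991), Ccnl1 (0.988) and Zfp51 (0.987). Those most like Gas5 were D7Ertd143e and Zfas1 (both 0.9965), Dancr (0.996), Atf4 (0.995) and Mcl1 (0.995). D7Ertd143e changed by -1.19 in WT and -0.72 in TKO.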

How the data were processed

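RNA-seq of 11 mouse ESC libraries was used. Per the labels and the study's methods, the authors mapped reads to mm9 with STAR and RefSeq genes, counted them with HTSeq and deposited TPM, and used DESeq2 on raw counts that were not used here. Software versions are not given in the sources used here. Whole reads were recovered from the TPM steps for 100% of the 19869 genes above 0, and served for depth and for an alternative added after the data were seen (limma voom). Intervals cover the spread between libraries, and read numbers are not independent molecules.

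Size factors (median of ratios) scaled the TPM, and limma 3.58.1 (R 4.3.3, eBayes with a trend) was run on log2(scaled TPM + 1), with 4 groups of 2 ribodepleted libraries in 1 fit and 3 polyA with 2 ribodepleted WT libraries in another. A mean scaled TPM over 1 was required. A gene was called at a Benjamini-Hochberg adjusted p under 0.05 and a change beyond 1.5-fold, and "at adjusted p under 0.05" means without the fold. The pseudocount understates changes of low genes. All tests are two-sided. A library whose partner is left out is assumed to vary like the other groups.

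The 9 genes and the lists were chosen with earlier results of these data known. Named genes were the 9, Tet1 to Tet3, snoRNA rows inside the 9 with a mean above 1, the 2 lowest and 2 highest WT changes of each of 4 lists, and the 5 genes most similar to the 9 and to Gas5. A gene that this rule names is not reported here. Rcc1, which overlaps Snhg3, and Zbtb37, which overlaps Gas5, were added after their values were seen. Older symbols were matched through RefSeq names (Dancr is 2700023E23Rik, Zfas1 1500012F01Rik, Snhg18 0610007N19Rik, Snhg15 Gm11974 and Smg8 1200011M11Rik in the files). The files use mm9, which is the NCBIM37 assembly of the genome and annotation used for positions. The fit was tested on simulated data.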

Additional observations from a re-analysis of the deposited data

Results flagged for a closer look

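The following results were flagged because same-numbered libraries differed in opposite directions. This was between the genotypes at 0 h and 4 h or, for Snhg9 alone, between 0 h and 4 h in the 2 genotypes. Some of the signs rest on very small differences in 1 pair. The genotype difference was -0.0069 for Snord87 at 0 h, and 0.026 for Gas5 and 0.027 for Dancr at 4 h. How many of all tested genes show such a pattern is not given here. The opposite directions themselves were not tested. The interaction in limma was, and it passed the threshold for none of these genes, with 7.52% of all tested genes at an unadjusted p under 0.05 and 0 called. Gas5 had an interaction of 0.30 (adjusted p = 0.662), with both TKO libraries below their WT counterparts at 0 h and above them at 4 h. The same held for the Snhg6 snoRNA Snord87 (0.51, adjusted p = 0.652), the Snhg12 snoRNA Snora61 (0.30, adjusted p = 0.662), Snhg15 (0.29, adjusted p = 0.652) and Dancr (0.36, adjusted p = 0.662). Snhg9, another noncoding host, changed by -0.16 and -0.51 in the 2 WT pairs after α-amanitin and by 0.35 and 0.23 in the 2 TKO pairs (interaction 0.63, adjusted p = 0.652). The labels number the replicates without saying that equal numbers are pairs, so these pairs are a reading aid.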

How the results depend on the processing

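The counts below are of the 9 host genes called. Without the fold threshold the counts were 8 for α-amanitin in WT (4 with it), 5 in TKO (2 with it), 5 for TKO against WT at 0 h (0), 3 at 4 h (0) and 9 for polyA against ribodepleted (4). With the fold threshold, the WT count of 4 became 6 with deposited TPM and 6 with quantile normalisation. The TKO count was 4 with deposited TPM and 0 with a pseudocount of 0.1 TPM, with no filter on low values and with no variance trend, and ran from 0 to 4 with single libraries left out. The polyA count was 2 with deposited TPM. The interaction count was 0 in every setting run. The cause of these moves was not tested. For Gas5 in TKO the adjusted p ran from 4.85e-05 to 0.23 over 17 alternatives, and for Gas5 in WT from 1.34e-07 to 0.0175.

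Same-numbered libraries deviated from their group means with correlations between -0.0443 and 0.119 over 6 pairs. No pairing by number shows in these values, but with 2 libraries per ribodepleted group they cannot exclude it. With a replicate block in the fit the counts were 4 in WT, 2 in TKO, 0 for the interaction and for both genotype comparisons and 4 for polyA, as without the block.

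The direction turned for values near 0. With deposited TPM, TKO against WT at 4 h became 0.15 for Snhg1, 0.12 for Snhg12 and 0.039 for Snhg7, α-amanitin in TKO became -0.073 for Snhg11 and -0.029 for Upf1, and in WT -0.051 for Upf1 and -0.049 for Snhg18. With quantile normalisation, TKO against WT at 0 h became 0.020 for Gas5 and -0.055 for Snhg11, at 4 h 0.23 for Snhg1, 0.096 for Snhg12, 0.012 for Snhg7 and -0.048 for Snhg11, and α-amanitin in WT became 0.037 for Snhg11, 0.082 for Snhg10 and -0.0053 for Upf1. With 1 library left out, TKO against WT at 4 h ran from -0.17 to 0.15 for Snhg1, from -0.20 to 0.13 for Snhg12 and from -0.076 to 0.25 for Snhg5. The interaction ran from -0.053 to 0.15 for Snhg11 and from -0.037 to 0.16 for Snhg8, and α-amanitin in TKO from -0.087 to 0.096 for Snhg11 and from -0.11 to 0.015 for Nop58. In WT it ran from -0.14 to 0.054 for Snhg11, from -0.062 to 0.057 for Nop58, from -0.19 to 0.17 for Snhg10 and from -0.13 to 0.20 for Snhg18. Snhg11 is also limited by its 226 to 339 ribodepleted reads.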
